A study of Homo sapiens with 3 samples.

Results

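The regions described here are 680 BRG1 peaks shared by both libraries that lie on the chromosome arms, far from any protein-coding gene. They were chosen by position alone. A member is a peak of the authors' overlap list, on chromosomes 1 to 22, whose midpoint is more than 100 kb from every protein-coding gene body. Midpoints in a fixed set of windows around centromeres and on short arms were left out, which removed 2502 shared peaks. The 680 members are part of 6343 shared peaks in all, 10.8% of the 6282 on chromosomes 1 to 22, and 18% of the 3780 left on the arms. The remaining 3100 arm shared peaks, called other arm shared peaks below, comprise 371 within 3 kb of a gene end, 1616 in gene bodies and 1113 in intergenic sequence up to 100 kb from a gene.

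The material was the wild-type 12Z line, established epithelial cells from human endometriosis, with no treatment or genetic change named in the labels. BRG1 was immunoprecipitated in 2 libraries, replicates 1 and 2, and 1 input library was made without antibody. No peak list of its own was used here for the input. The labels do not say that the replicates were separate cultures, so the spread between them may be technical, and a single line is a single genetic background.

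BRG1, the product of SMARCA4, is an ATPase that powers SWI/SNF complexes, which slide and evict nucleosomes. These complexes are brought to DNA largely by transcription factors, and much of their binding lies at enhancers, elements that can act on a promoter over long distances. AP-1, a dimer of JUN and FOS family proteins, and the TEAD factors, partners of the Hippo pathway effector YAP, are common recruiters at enhancers of epithelial and mesenchymal cells.

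Although the members lie far from coding genes, 24 of them (3.53%) reached the annotated start of a non-coding gene. Each RefSeq start window holds 250 bases before and 50 bases after the start. The 24 members touched 26 such windows, all of long non-coding RNA (lncRNA) genes, and 19 windows lay whole inside the peak. The 26 are 0.969% of the start windows far from coding genes on the arms. The 3100 other arm shared peaks touched 245 windows, of genes of any type. The share of those peaks that reach a start was not counted, so 3.53% has no direct comparison. A match to TGANTCA, an AP-1 motif with any base at its centre, was found in 15 of the 26 windows (57.7%). Such windows were carried by 13 of the 24 members. This loose form takes in TGATTCA and TGAATCA beside the usual TGAGTCA and TGACTCA, and the usual form alone was not counted. All 22 matches lay inside the peak. Of the 245 windows touched by other arm shared peaks, 30.6% held a match, as did 13.7% of the 2682 windows far from coding genes on the arms and 7.67% of all 33725 windows on chromosomes 1 to 22. The 245 windows were not limited to lncRNA genes, so they are not a matched set for the 26. Both sets stood above a wider background, 57.7% against 13.7% of far windows and 30.6% against 7.67% of all windows. A raised AP-1 share was therefore not particular to the members. The palindrome was searched on both strands, and a match describes letters, not a bound site.

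The following windows carry that pattern, printed 5′ to 3′ on the gene's strand from RefSeq, build GRCh38.p14, with AP-1 matches and matches to the TEAD motif GGAATG (or CATTCC on the opposite strand) in capitals. The first 2 belong to CYTOR and MIR4435-2HG, lncRNA genes that are near-copies of each other.
CYTOR, chr2:87455177-87455476, plus strand: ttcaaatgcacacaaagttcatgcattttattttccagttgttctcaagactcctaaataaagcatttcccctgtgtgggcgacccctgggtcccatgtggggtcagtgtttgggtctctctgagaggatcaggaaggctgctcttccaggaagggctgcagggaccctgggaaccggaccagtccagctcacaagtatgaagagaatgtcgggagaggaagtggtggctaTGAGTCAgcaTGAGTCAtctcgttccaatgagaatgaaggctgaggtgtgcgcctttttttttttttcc
MIR4435-2HG, chr2:111495112-111495411, minus strand: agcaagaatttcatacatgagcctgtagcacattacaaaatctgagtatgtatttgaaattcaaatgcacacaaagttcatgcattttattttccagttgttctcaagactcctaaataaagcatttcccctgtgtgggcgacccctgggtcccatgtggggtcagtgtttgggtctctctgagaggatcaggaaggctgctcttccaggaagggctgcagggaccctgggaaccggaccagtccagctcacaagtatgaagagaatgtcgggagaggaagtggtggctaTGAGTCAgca
Their windows were identical over 241 of 241 aligned bases. Reads from these copies may not be assigned uniquely, so both peaks are uncertain as to which copy gave the signal. The peak at CYTOR had a fold over background of 4.04 in replicate 1 and 4.20 in replicate 2, and that at MIR4435-2HG had 3.82 in replicate 1 and 4.06 in replicate 2. CYTOR's AP-1 matches lie 19 and 9 bases before the start, and that of MIR4435-2HG lies 41 bases after it. That difference in position follows the annotated starts. The MIR4435-2HG window ends where CYTOR's second match begins, so whether that copy holds the second match was not read. The lncRNA NCAL1 starts inside the same peak as CYTOR, in a window that overlaps the one printed.

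Further starts with a pair of AP-1 matches each were those of LINC-PINT, LINC01271 and LINC03108, printed below as examples, and of LOC124903079, near TBX3. Both matches at LINC-PINT, and the first at LINC03108 and at LOC124903079, have T or A at the centre.
LINC-PINT, chr7:130913261-130913560, minus strand: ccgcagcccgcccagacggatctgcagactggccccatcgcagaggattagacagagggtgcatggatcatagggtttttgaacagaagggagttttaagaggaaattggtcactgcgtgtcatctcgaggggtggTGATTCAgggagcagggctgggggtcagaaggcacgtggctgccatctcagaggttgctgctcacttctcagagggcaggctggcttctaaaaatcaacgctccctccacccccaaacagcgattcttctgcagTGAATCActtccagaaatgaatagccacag
LINC01271, chr20:50321293-50321592, minus strand: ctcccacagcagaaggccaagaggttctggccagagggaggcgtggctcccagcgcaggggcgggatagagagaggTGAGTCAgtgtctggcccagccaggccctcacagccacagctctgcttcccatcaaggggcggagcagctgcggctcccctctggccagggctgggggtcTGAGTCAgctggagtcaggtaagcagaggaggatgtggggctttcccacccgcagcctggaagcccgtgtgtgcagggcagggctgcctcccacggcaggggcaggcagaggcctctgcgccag
LINC03108, chr1:234980727-234981026, minus strand: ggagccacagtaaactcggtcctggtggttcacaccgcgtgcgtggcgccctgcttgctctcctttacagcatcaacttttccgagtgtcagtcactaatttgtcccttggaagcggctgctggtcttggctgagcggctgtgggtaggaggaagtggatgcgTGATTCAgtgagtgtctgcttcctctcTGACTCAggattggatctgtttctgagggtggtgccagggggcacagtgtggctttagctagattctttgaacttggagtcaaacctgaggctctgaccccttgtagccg
The LINC-PINT peak, 179 kb from KLF14, a Krüppel-like transcription factor gene, had a fold of 3.89 in replicate 1 and 3.93 in replicate 2. LINC00513 starts in the same peak on the opposite strand and shares most of the window, so the same letters are counted there a second time. The LINC01271 peak lies 129 kb from CEBPB, which encodes a basic leucine zipper factor, with folds of 3.53 in replicate 1 and 3.55 in replicate 2. The LINC03108 peak had folds of 3.50 in replicate 1 and 4.20 in replicate 2. By mean fold percentile these peaks ranked 333, 624 and 449 of 680, that at LOC124903079 ranked 198 and that at CYTOR 153.

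LOC105370767 is printed because it holds a TEAD match separated by a single base from an AP-1 match of the loose form, TGAATCA. LINC02192 is printed for its single AP-1 match, TGACTCA, and LINC01914 for a window whole inside its peak with no match to either motif.
LOC105370767, chr15:36361465-36361764, minus strand: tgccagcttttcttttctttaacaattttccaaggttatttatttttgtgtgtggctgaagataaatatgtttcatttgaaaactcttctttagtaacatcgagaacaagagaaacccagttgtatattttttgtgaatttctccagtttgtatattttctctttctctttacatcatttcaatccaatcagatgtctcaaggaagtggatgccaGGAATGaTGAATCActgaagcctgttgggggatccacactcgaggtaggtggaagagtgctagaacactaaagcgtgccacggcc
LINC02192, chr16:47887081-47887380, minus strand: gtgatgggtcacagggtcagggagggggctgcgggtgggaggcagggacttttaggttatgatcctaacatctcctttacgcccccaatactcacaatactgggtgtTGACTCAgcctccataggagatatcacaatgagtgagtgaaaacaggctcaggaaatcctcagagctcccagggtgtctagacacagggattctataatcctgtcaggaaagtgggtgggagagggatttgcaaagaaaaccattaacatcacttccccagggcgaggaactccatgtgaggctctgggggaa
LINC01914, chr2:41933674-41933973, minus strand: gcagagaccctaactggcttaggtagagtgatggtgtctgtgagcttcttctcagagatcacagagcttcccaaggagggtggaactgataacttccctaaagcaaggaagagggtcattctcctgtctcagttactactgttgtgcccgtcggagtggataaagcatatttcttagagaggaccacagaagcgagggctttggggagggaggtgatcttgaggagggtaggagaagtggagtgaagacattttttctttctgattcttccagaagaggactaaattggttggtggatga
The fold was 3.80 in replicate 1 and 3.92 in replicate 2 at LOC105370767, 4.33 in replicate 1 and 3.89 in replicate 2 at LINC02192, and 3.89 in replicate 1 and 3.95 in replicate 2 at LINC01914. Over all 24 members at a start, the 13 with an AP-1 match had median folds of 3.94 in replicate 1 (3.50 to 4.83) and 4.0 in replicate 2 (3.55 to 4.48). The 11 without one had 3.72 in replicate 1 (3.64 to 4.38) and 3.92 in replicate 2 (3.75 to 4.62), so the ranges overlapped in both libraries. The TEAD motif was found in 7 of the 26 windows (26.9%), close to the 26.5% of windows touched by other arm shared peaks, and in 17.6% of windows far from coding genes and 14% of all windows. The full cyclic AMP response element TGACGTCA, which shares no match with TGANTCA, occurred in 0 of the 26 windows, 0.816% of those touched by other arm shared peaks, 0.485% of far windows and 1.87% of all windows.

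The AP-1 share was also counted for far peaks of each replicate, by whether the other library held them, although few windows are involved. Far peaks found in the other library largely coincide with the members. Their windows therefore mostly repeat those above and give no separate support. Far peaks of replicate 1 found in replicate 2 touched 24 windows, 14 with a match (58.3%), and those not found touched 10, 2 with a match. Far peaks of replicate 2 found in replicate 1 touched 18 windows, 12 with a match (66.7%), and the 1 window touched by a peak not found had none. With 1 such window, no difference can be read in replicate 2. Overlapping windows and copied genes make these counts fewer than independent observations, and they are given without a test. The motifs were chosen after the windows had been seen.

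**Figure D1:**
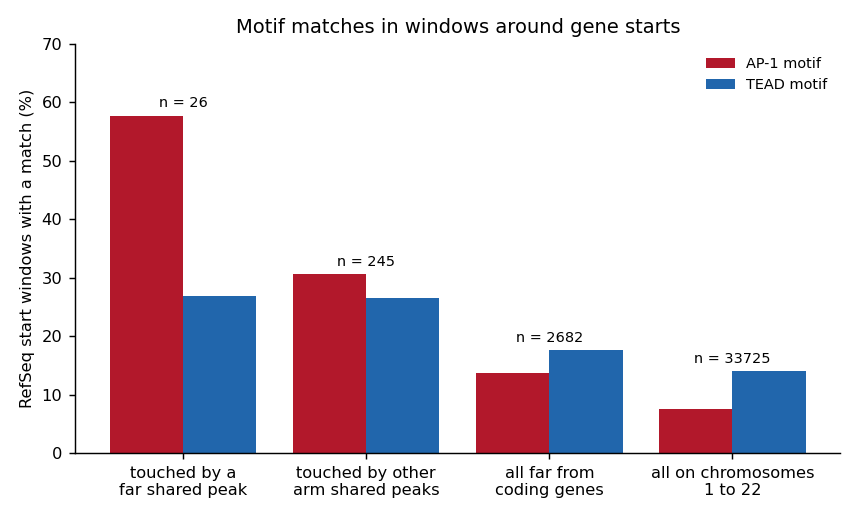
Share of 300-base RefSeq start windows (y axis, %) with a match to the AP-1 motif TGANTCA (red) or the TEAD motif GGAATG (blue) in 4 sets of windows (x axis), with the number of windows above each pair of bars. The AP-1 bar stands at 57.7% for windows touched by far arm shared peaks and at 30.6%, 13.7% and 7.67% in the other sets. N in TGANTCA stands for any base. The sets were not matched for gene type.

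BRG1 enrichment at the members was weak and even. The fold over background, the authors' ratio for each peak, had a median of 3.83 in replicate 1, with a range of 2.12 to 5.97, and of 3.99 in replicate 2, with a range of 2.39 to 5.91. In the overlap list it was 3.52, and the quartiles were 3.31 and 3.73. The −log10 q-value, the adjusted significance of a peak over background, had a median of 2.32 in replicate 1 and 2.29 in replicate 2. A −log10 q of 5 was reached by 16 members in replicate 1, 10 in replicate 2, 22 in either and 4 in both. Across the members, the fold in one library tracked that in the other loosely (Spearman correlation 0.40 over 680 members; 0.42 over the 3100 other arm shared peaks), a description over peaks that share libraries. Members were 1099 bp long at the median (139 to 6901 bp). In replicate 1, 613 members corresponded to a single peak and 67 to several, and in replicate 2 626 did and 54 to several.

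**Figure D2:**
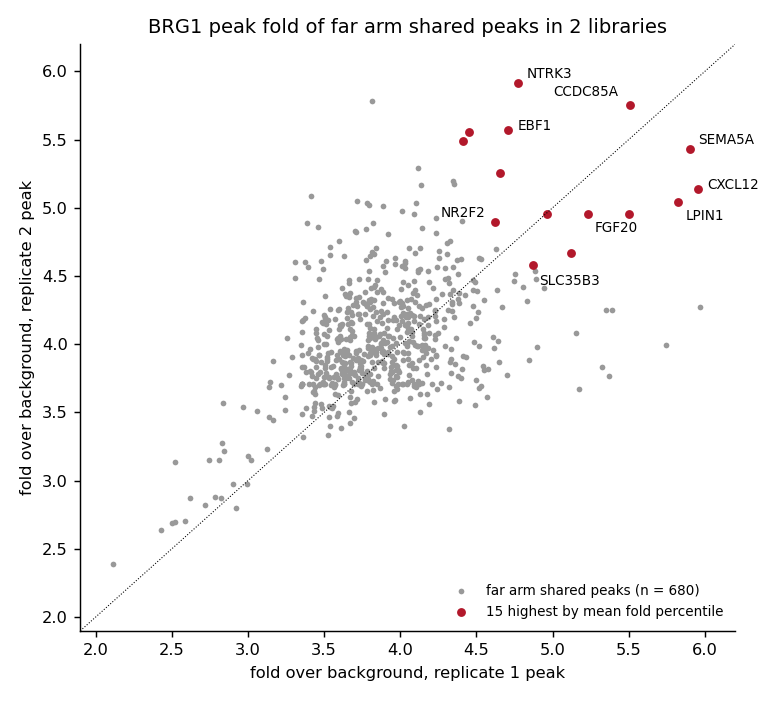
Fold over background of the 680 far arm shared peaks in replicate 1 (x axis) and replicate 2 (y axis), both linear, with the line of equal fold dotted. Red points are the 15 members that rank highest in fold percentile averaged over the libraries, some labelled by the nearest coding gene; most members lie near medians of 3.83 and 3.99, and a tail of low fold runs along the line.

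The member of highest rank lay 356 kb from CCDC85A, which encodes a coiled-coil protein, at chr2:56741445-56742185, with folds of 5.50 in replicate 1 and 5.75 in replicate 2. It is one of the 4 members whose −log10 q reached 5 in each library (6.21 in replicate 1 and 6.0 in replicate 2). The next lay 205 kb from SEMA5A, a semaphorin guidance gene, at chr5:8828683-8830720, inside the lncRNA gene LOC101929307, with folds of 5.90 in replicate 1 and 5.43 in replicate 2. Its −log10 q was 7.43 in replicate 1 and 5.33 in replicate 2. Both stood near the top of each library. The other 2 members of this kind had high q at low fold, near a chromosome end and a centromere. One lay 137 kb from FRG2B at chr10:133762904-133764069, with folds of 2.62 in replicate 1 and 2.88 in replicate 2. The other lay 1295 kb from OR4C46, an olfactory receptor gene, at chr11:53307698-53307836, with folds of 2.59 in replicate 1 and 2.71 in replicate 2. They ranked 675 and 676 of the 680 by fold.

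Among the other members of the top 15 by rank, the peak 175 kb from CXCL12, the chemokine ligand of CXCR4, lay at chr10:44195296-44195708, with folds of 5.96 in replicate 1 and 5.14 in replicate 2. FGF20, a fibroblast growth factor gene, was 166 kb from a peak with folds of 5.23 in replicate 1 and 4.95 in replicate 2. NTRK3, which encodes the neurotrophin-3 receptor, was 107 kb from a peak at chr15:87751848-87753052 with folds of 4.77 in replicate 1 and 5.91 in replicate 2. Of these 3, the NTRK3 peak alone was higher in replicate 2. A peak 120 kb from the sugar transporter gene SLC45A1 lay on the side facing ERRFI1, whose product inhibits the EGF receptor, with folds of 5.50 in replicate 1 and 4.96 in replicate 2. The same interval held a further member 112 kb from ERRFI1, with folds of 4.34 in replicate 1 and 5.19 in replicate 2. The interval between SLC25A46, a mitochondrial outer membrane gene, and the cytokine gene TSLP held a peak with folds of 4.96 in replicate 1 and 4.95 in replicate 2. The peak 144 kb from MOCS2, an enzyme gene of molybdenum cofactor synthesis, faced FST, the gene for the activin antagonist follistatin, with folds of 4.65 in replicate 1 and 5.25 in replicate 2.

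The top 15 also held peaks near genes of DNA-binding factors. EBF1, an early B-cell and mesenchymal factor gene, was 311 kb from a peak in the lncRNA gene LINC02227 at chr5:158384595-158385780, with folds of 4.71 in replicate 1 and 5.57 in replicate 2. NR2F2, which encodes the nuclear receptor COUP-TFII of uterine stroma, was 428 kb from a peak at chr15:96767589-96769892, with folds of 4.62 in replicate 1 and 4.89 in replicate 2. A peak 113 kb from ZNF827, a zinc finger gene, had folds of 4.45 in replicate 1 and 5.56 in replicate 2. The peak nearest SLC35B3, a nucleotide sulfate transporter gene, lay 769 kb away on the side facing TFAP2A, which encodes AP-2 alpha, with folds of 4.87 in replicate 1 and 4.58 in replicate 2. The remaining peaks of the top 15 were nearest to LPIN1, a lipid phosphatase gene (5.82 in replicate 1, 5.04 in replicate 2), GUCY1A2, a guanylate cyclase subunit gene (5.12 in replicate 1, 4.67 in replicate 2), and COX7C, a cytochrome c oxidase subunit gene (4.41 in replicate 1, 5.49 in replicate 2). The LPIN1 peak, at chr2:12024341-12024482, had the highest overlap-list fold of all members (5.75) and lay in an annotated pseudogene. Whether reads map uniquely there was not tested. The nearest gene is a landmark here: which gene, if any, such a peak acts on was not measured.

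The members were also counted in gene deserts, the stretches between neighbouring coding genes. These stretches differ in length, and whether members gather beyond what length gives was not tested. Of 1484 stretches with some position more than 100 kb from a coding gene, 291 held a member, 142 of them exactly 1. The 32 stretches with 5 or more held 237 members, and the 10 with the most held 105. The fold was ordinary in these 10: the medians per desert lay between 3.63 and 4.09 in replicate 1 and between 3.77 and 4.14 in replicate 2, around the medians of all members. By density the order differed. The stretch between SLC7A14 and RPL22L1 held 6 members at 21.5 per Mb, against 12.8 per Mb in the stretch with the most members.

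By count, the fullest desert lay on chromosome 15 between RASGRP1, a Ras exchange factor gene, and the predicted gene LOC124903470, beyond which comes THBS1, the gene for the matrix protein thrombospondin 1. It held 13 members in 1.01 Mb, with folds of 3.36 to 4.63 in replicate 1 and 3.58 to 4.69 in replicate 2, and 11 of the 13 lay in the lncRNA gene LOC105370777. On the same chromosome, the 1.03 Mb between DPH6, a diphthamide synthesis gene, and CDIN1 held 11 members in 2 groups, 5 of them in DPH6-DT within 192 kb of DPH6 and 6 within 245 kb of CDIN1. Between TNC, which encodes tenascin C, and PAPPA, a protease gene that frees insulin-like growth factors, 11 members lay in 1.04 Mb, with folds of 3.14 to 4.52 in replicate 1 and 3.63 to 4.62 in replicate 2. Between IGFBP3, a binding protein of the same growth factors, and TNS3, a focal adhesion gene, 9 members lay in 1.35 Mb, none of them in a lncRNA gene. A stretch on chromosome 21 whose left flank is the predicted gene LOC124905050, past ADAMTS5, an aggrecan-cleaving protease gene, held 11 members.

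In 2 of the deserts every member lay nearer to 1 side. All 10 members between MYC and GSDMC, a gasdermin gene, were nearest to MYC, at 109 to 581 kb, although the desert spans 1.96 Mb. MYC encodes the growth-promoting transcription factor, and 5 of the 10 lay inside PVT1, the lncRNA gene beside it. Their folds ranged from 3.42 to 4.52 in replicate 1 and from 3.54 to 3.99 in replicate 2, and the highest lay 433 kb from MYC at chr8:128174608-128178223. All 10 members between ARRDC3, an arrestin-like gene, and NR2F1, which encodes the nuclear receptor COUP-TFI, were nearest to NR2F1, at 224 to 746 kb in a desert of 2.20 Mb. These had folds of 3.59 to 4.43 in replicate 1 and 3.46 to 4.47 in replicate 2. The remaining deserts of the 10 were bounded by TBL1XR1, a corepressor subunit gene, and KCNMB2, a potassium channel subunit gene (12 members), by METTL15, a mitochondrial methyltransferase gene, and the channel gene KCNA4 (9 members), and by RFPL4B and MARCKS, an actin-binding substrate of protein kinase C (9 members).

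**Figure D3:**
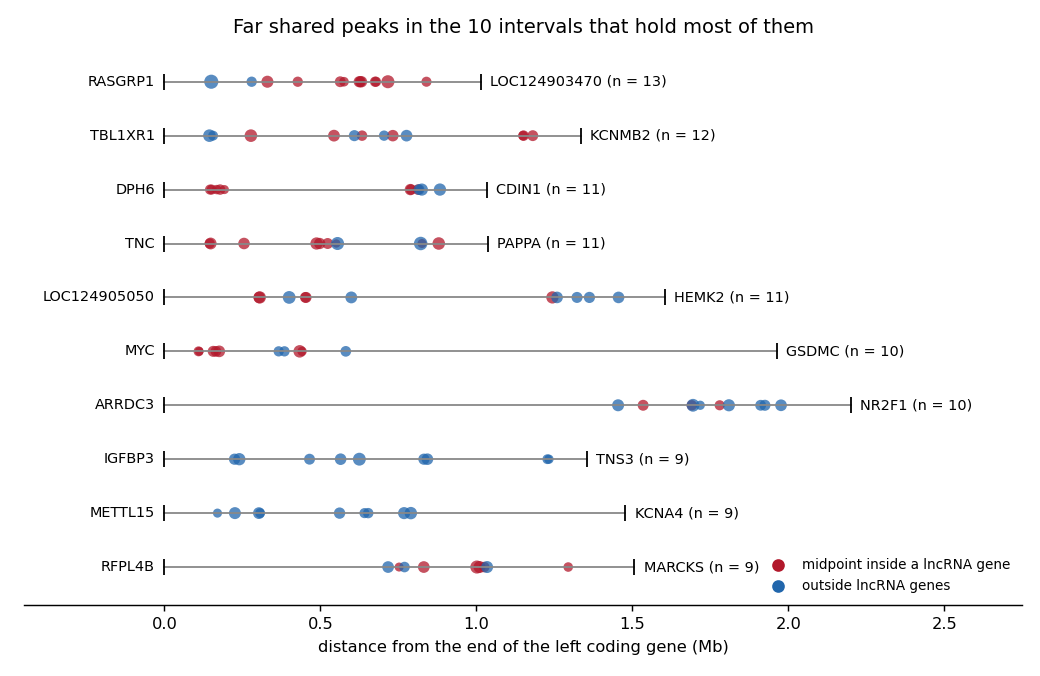
Positions of far arm shared peaks (points) in the 10 deserts that hold the most, as distance in Mb from the end of the left coding gene (x axis), each line running from the left to the right coding gene. Point area grows with the sum of the folds in both replicates, and red points have their midpoint in a lncRNA gene; all 10 points between MYC and GSDMC sit toward MYC, and all 10 between ARRDC3 and NR2F1 toward NR2F1.

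On a finer scale, joining members within 10 kb of each other left 513 single, 63 pairs, 9 groups of 3, 2 groups of 4 and 1 group of 6, so 167 members stood in 75 groups. The largest group and 1 of the groups of 4 lay at the start of the long arm of chromosome 15 and had low fold. The group of 6 lay at chr15:20644828-20673807 near GOLGA6L6, with median folds of 2.80 in replicate 1 and 3.01 in replicate 2, and the group of 4 near LOC107983983 had 3.01 in replicate 1 and 3.31 in replicate 2. The other group of 4, at chr19:28694287-28712130 and 494 kb from UQCRFS1, a gene of the respiratory chain, had 4.05 in replicate 1 and 3.82 in replicate 2. Groups of 3 stood near PIK3R1, which encodes the regulatory subunit of PI3-kinase, NR3C1, the glucocorticoid receptor gene, KLF14, MYC, SLC7A14, CDIN1, TMEM135, LOC124903470 and POTEB2. Among the groups of 3, that near PIK3R1 had the highest median fold in replicate 1 (4.34, and 4.30 in replicate 2), and that near NR3C1 the highest in replicate 2 (4.33, and 3.73 in replicate 1).

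Smaller runs of members lay beside single genes. DKK1, which encodes a secreted inhibitor of Wnt signalling, was the nearest coding gene of 6 members on the side facing MBL2, all within 209 kb, with folds of 3.51 to 4.26 in replicate 1 and 3.85 to 4.92 in replicate 2. Each of the 6 was higher in replicate 2, as was the median fold of all members (3.99 against 3.83). TFAP2A was nearest to 6 members at 120 to 915 kb, of which 4 lay between chr6:9481081-9483036 and chr6:9519946-9521920. Their highest fold was 4.97 in replicate 2, at chr6:9503035-9503947, where replicate 1 had 4.01. NR3C1 was nearest to 5 members at 101 to 161 kb, all inside the lncRNA genes LOC105378208 and LOC105378209. In replicate 1 the 5 had folds of 3.41 to 3.85, and in replicate 2 of 3.77 to 4.48. The 5 members nearest IGFBP3 ran from 225 to 625 kb, with folds of 3.67 to 4.39 in replicate 1 and 3.67 to 4.35 in replicate 2. There the farthest of the 5, at chr7:46545653-46546260, was the highest in replicate 1, with 4.39, and had 4.30 in replicate 2.

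A lncRNA gene body held the midpoint of 257 members, 37.8% (95% Wilson interval 34.2 to 41.5%), while such bodies cover 26.7% of the far arm length. Among all far arm peaks of replicate 1 the share was 34.2%, and among those of replicate 2 it was 35.3%. Annotated pseudogenes held 9 members (1.32%, interval 0.698 to 2.50%), against 1.17% of the length. The intervals treat peaks as independent and cover counting error only. Of the members 46.5% lay at 100 to 200 kb from a coding gene, against 29.5% of the far length. The lncRNA cover was not counted by distance, nor was the share among other arm shared peaks, so no enrichment is read from these shares. The lncRNA genes that held most members were LOC105370777 with 11, SLC7A14-AS1 and LINC-PINT with 6 each, and PVT1 and DPH6-DT with 5 each. LOC105379013, LOC105373456, LOC107984361, LOC105376235, LOC105373893, LINC02964, CFAP418-AS1 and the transcribed pseudogene LOC100420587 held 4 each, the 4 of the last being the group near UQCRFS1. The highest fold in replicate 1 within these genes, 4.83, was at LOC105379013, 132 kb from PIK3R1, and in replicate 2 that peak had 4.32.

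Members became sparser with distance from genes. The far arm length is 708 Mb, 26.6% of the arms, and held 0.960 members per Mb, against 1.59 shared peaks per Mb in the rest of the arms, a ratio of 0.604. The ratio was 0.626 in the replicate 1 list (2.98 against 4.76 peaks per Mb) and 0.653 in the replicate 2 list (1.38 against 2.11). From 100 to 200 kb there were 316 members, 1.51 per Mb, close to the rest of the arms. Density was 0.880 per Mb from 200 to 500 kb, 0.642 from 500 to 1000 kb and 0.307 beyond that, where 20 members lay. In the replicate lists it did not fall in the last step. It was 2.17 in replicate 1 and 0.963 in replicate 2 from 500 to 1000 kb, and 2.42 in replicate 1 and 1.15 in replicate 2 beyond 1000 kb, but 112 of the 158 replicate 1 peaks and 65 of the 75 replicate 2 peaks beyond 1000 kb lay at centromere positions that the rule's windows do not cover. The median distance was 214 kb (quartiles 143 and 377 kb).

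**Figure D4:**
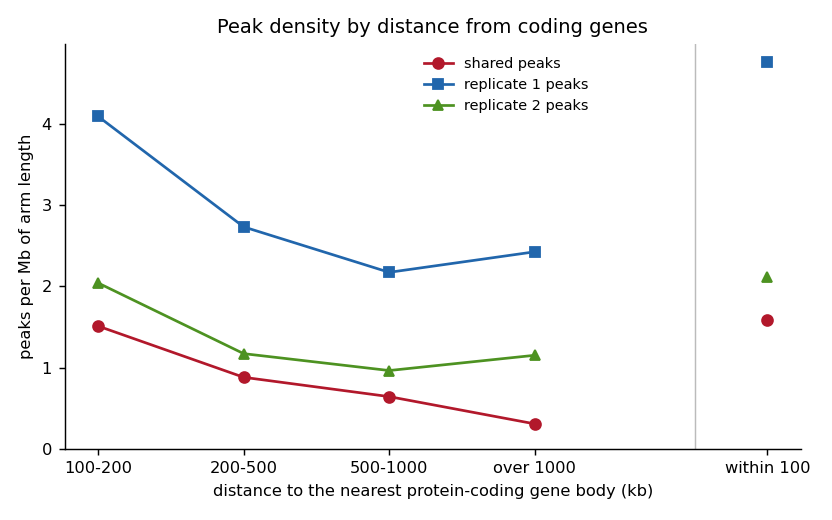
Peaks per Mb of arm length (y axis) by distance of the midpoint from the nearest coding gene (x axis, kb), with the rest of the arms, within 100 kb, at the right. Shared peaks stand at 1.51 per Mb at 100 to 200 kb and at 0.307 beyond 1000 kb, while both replicate lists stop falling after 500 to 1000 kb.

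Some members lie at centromeres rather than on the arms that the name gives them. At centromere positions of chromosomes 3, 6, 8 and 11, which the rule has no window for, lay 13 members, with median folds of 2.90 in replicate 1 and 2.98 in replicate 2, and 12 of the 20 members beyond 1000 kb were among them. A further 54 lay within 5 Mb of a dropped window, with medians of 3.54 in replicate 1 and 3.79 in replicate 2. The 613 left had medians of 3.85 in replicate 1 and 4.02 in replicate 2. The 5 members farthest from any coding gene show the same split: 4 lay in the intervals between OR4C12 and OR4C46 and between PRIM2 and KHDRBS2, at 1789 to 2306 kb, with folds of 2.43 to 3.12 in replicate 1. The fifth, 1824 kb from ARAP2 in the lncRNA gene LINC02484 at chr4:34181143-34182600, had folds of 4.11 in replicate 1 and 4.53 in replicate 2. Whether reads at such positions map uniquely was not tested.

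Chromosomes differed widely. Chromosome 5 held most members, 94, followed by chromosome 6 with 70 and chromosome 15 with 65. Per Mb of far arm length, chromosomes 19 and 15 stood highest with 4.86 and 4.38 members, the first from only 10 members in 2.06 Mb. Of those 10, 7 lay between ZNF254 and UQCRFS1, at 28694287 to 29099468, close to the dropped window of chromosome 19. Chromosomes 13, 14, 4 and 18 stood lowest with 0.258, 0.265, 0.269 and 0.274. The density of the other arm shared peaks had a Spearman correlation of 0.76 with that of the members over 22 chromosomes, a description of peaks from the same libraries. The others had 2.58 per Mb on chromosome 15 and 2.97 on chromosome 5, and 0.581 on chromosome 13 and 0.840 on chromosome 4. On chromosome 19, highest for members, they had 1.38, and they were lowest on chromosome 16, where members had 0.364 and the others 0.318. On chromosome 15, 18 of the 65 members lay between 20644828 and 22307044 at median folds of 3.08 in replicate 1 and 3.33 in replicate 2. The number of copies of each chromosome in the line was not measured here, and its part in these densities was not tested.

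**Figure D5:**
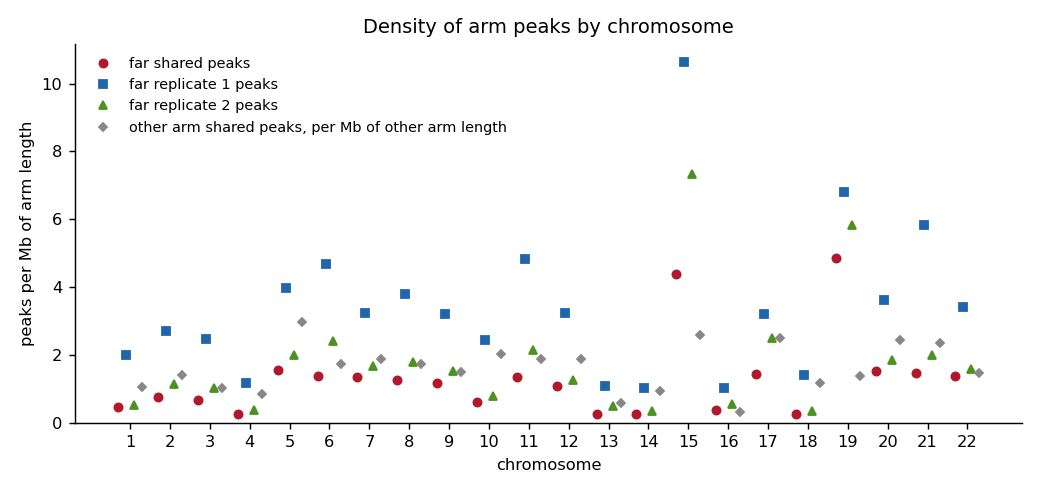
Arm peaks per Mb of arm length (y axis) on chromosomes 1 to 22 (x axis): far shared, far replicate 1 and far replicate 2 peaks per Mb of far arm length, and other arm shared peaks per Mb of the remaining arm length (grey). Far shared peaks reach 4.38 per Mb on chromosome 15 and 4.86 on chromosome 19, and are lowest on chromosomes 4, 13, 14 and 18.

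Of the 2532 coding genes that are the nearest one to some position on the far arm length, 368 (14.5%) were nearest to a member. The lists below are read against that share and against the 0.960 members per Mb of the whole far length. They are described by counts, since they were chosen with earlier results of these data known. Of the immediate early and AP-1 related genes, MYC was nearest to 10 members, the most of any coding gene together with NR2F1. KLF4, a Krüppel-like factor gene, had 3, the highest with folds of 4.12 in replicate 1 and 3.71 in replicate 2. JUN, which encodes an AP-1 subunit, had 2, the higher with folds of 3.61 in replicate 1 and 4.04 in replicate 2. KLF5 and KLF6 had none.

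Growth factor and inflammatory genes had a member in 5 of 13 cases with 5 members (2.03 per Mb): CXCL12 and ERRFI1, described above, and the growth factor genes FGF18, FGF9 and HGF. The FGF18 peak had folds of 4.46 in replicate 1 and 4.15 in replicate 2, and the HGF peak, 367 kb from the gene, had 3.63 in replicate 1 and 3.79 in replicate 2. IL6, PTGS2 and EGFR were among those without one. Of the TGF-beta genes 3 of 8 had a member (3 members, 1.28 per Mb): SMAD6, an inhibitory SMAD gene, SMAD3, a signal transducer gene 134 kb away from its peak, and ID2, a target gene. The SMAD6 peak was higher in replicate 1, with folds of 5.97 in replicate 1 and 4.27 in replicate 2, while that near SMAD3 had 3.58 in replicate 1 and 3.47 in replicate 2. Adhesion and matrix genes had a member in 5 of 16 cases, 9 members or 1.02 per Mb, of which TNC had 5 and COL4A1, CDH2, CDH4 and CDH11 had 1 each.

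Developmental transcription factor genes had a member in 11 of 36 cases, 26 members or 1.59 per Mb, and NR2F1 alone had 10 of the 26. SOX9, a factor of epithelial and cartilage development, had 3 members at 213 to 708 kb, the highest with folds of 4.80 in replicate 1 and 4.42 in replicate 2. NR2F2, TSHZ3, MSX2 and FOXD1 had 2 each, and TBX3, TBX18, ZEB2, SATB1 and OSR1 had 1 each. The member nearest ZEB2, whose product is a transcriptional repressor that promotes epithelial-mesenchymal transition, lay 1605 kb away. It had folds of 4.41 in replicate 1 and 3.92 in replicate 2. The 25 without one include GATA6, SOX17, ZEB1 and TBX5. The YAP/TEAD list had a member in 3 of 10 cases (4 members, 1.42 per Mb): F3, the tissue factor gene, with 2, CRIM1, a BMP-binding protein gene, and RBMS3, an RNA-binding protein gene. The higher F3 peak had folds of 4.23 in replicate 1 and 4.33 in replicate 2. CCN2 and ANKRD1, the textbook YAP targets, had none at this distance.

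The members were then set against the other arm shared peaks on measures that the position rule does not use. None of 5 comparisons passed the threshold of 0.05 after Benjamini-Hochberg adjustment (Fisher's exact test, two-sided). A −log10 q of 5 in both replicates was reached by 4 of 680 members (0.588%, Wilson interval 0.229 to 1.5%) and 23 of 3100 other arm shared peaks (0.742%, 0.495 to 1.11%), where the share over all arm shared peaks was 0.714% (odds ratio 0.79, exact p = 0.806, adjusted p = 0.979). A neighbouring arm shared peak within 10 kb was present for 169 members (24.9%, 21.8 to 28.2%) and 804 others (25.9%, 24.4 to 27.5%), against 25.7% of all (odds ratio 0.94, exact p = 0.594, adjusted p = 0.979). In both replicates 50% of each peak was shared for 155 members (22.8%, 19.8 to 26.1%) and 678 others (21.9%, 20.5 to 23.4%), against 22% of all (odds ratio 1.05, exact p = 0.610, adjusted p = 0.979).

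The overlap list holds only peaks present in both libraries, so the same position rule was also applied to each replicate list. In replicate 1, 686 of 2110 far arm peaks were found in replicate 2 (32.5%, 30.5 to 34.5%) and 3023 of 9280 other arm peaks (32.6%, 31.6 to 33.5%), where 32.6% of all arm peaks were (odds ratio 1.00, exact p = 0.979, adjusted p = 0.979). In replicate 2, 706 of 977 far arm peaks were found in replicate 1 (72.3%, 69.4 to 75%) and 3094 of 4121 others (75.1%, 73.7 to 76.4%), where 74.5% of all were (odds ratio 0.86, exact p = 0.0723, adjusted p = 0.362). At a distance of 250 kb far peaks were found less often, with an unadjusted exact p below 0.05 in both comparisons. The odds ratio was then 0.82 in replicate 1 (Fisher's exact p = 0.00542) and 0.62 in replicate 2 (Fisher's exact p = 7.32e-06). In replicate 2 the direction turned, to 1.15 (exact p = 0.123), when centromere windows were added for chromosomes 3, 6, 8 and 11, which hold 152 far peaks of replicate 1 and 82 of replicate 2.

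Fold and length were close as well. The median fold in replicate 1 was 3.83 for members and 3.82 for other arm shared peaks, and in replicate 2 it was 3.99 for members and 3.92 for the others. By position, the overlap-list fold had a median of 3.52 for members, 3.50 in near intergenic sequence, 3.49 in gene bodies and 3.35 at gene ends. Members were somewhat longer, with medians of 1099 bp against 979 bp for the others, 645 bp against 541 bp in replicate 1 and 381.5 bp against 348 bp in replicate 2. With 2 libraries these medians carry no test.

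The limit of 100 kb cut through a continuum. Just inside it lay members nearest ARHGAP28, KIF2B, SMAD6, the endocytic adaptor gene DAB2, and PIK3R1, at 100.215 to 100.763 kb, with overlap-list folds of 3.16 to 5.06. Just outside lay peaks nearest S1PR1, MTDH, DDX1, ADGB and LOC107985876, at 99.317 to 99.601 kb, with folds of 3.44 to 5.93. The highest of these 10 was the peak near the helicase gene DDX1, with folds of 6.28 in replicate 1 and 5.04 in replicate 2.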

How the data were processed

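BRG1 was mapped by ChIP-seq in wild-type 12Z cells in 2 libraries, beside 1 input library. Per the labels' protocols, crosslinked chromatin was digested with micrococcal nuclease before a short sonication. The submitters' processing notes name the trimmers cutadapt and Trim Galore, the aligner Bowtie2, SAMtools and Picard for alignments, MACS2 for peaks, bedtools, and the build GRCh38.p12. Which versions and settings were used, and how the input entered, is not stated in these notes. The deposited lists are broad peaks of each replicate and an overlap list. For each peak the authors gave a fold enrichment, a ratio over background, with p-value and q-value, each as −log10. The score column, also deposited, was not used. No read counts are in the lists, so depth is unknown and no interval includes read sampling. Replicate 1 held 17399 peaks, replicate 2 held 10157 and the overlap list 6343. The notes do not state whether the overlap list came from pooled reads.

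A shared peak took its replicate values from the replicate peak that overlapped it most, and 1 bp of overlap counted as found in the other library. Distances run from the midpoint to 19126 protein-coding gene bodies of the GRCh38.p14 gene table, whose own coordinates are not printed except in the start windows. All 33725 start windows on chromosomes 1 to 22 matched the table by gene identifier. Shares carry Wilson 95% intervals. Fisher's exact test (two-sided, Benjamini-Hochberg over 5 tests, threshold 0.05) treats peaks as independent. The share tests were tested on simulated data, drawn as independent counts. Such draws do not cover dependence between neighbouring peaks or shares as rare as that of strong q-values. Alternatives changed the distance, windows, overlap, q, gene set or replicate.

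Genes were named by a rule: neighbours of the 15 members highest in mean fold percentile, flanks of the 10 fullest deserts, the 10 largest groups, the 10 non-coding genes with most members, the 5 farthest members, 5 on each side of the limit, and list genes nearest to a member. Groups and non-coding genes tied in size, start-window genes with their neighbours CEBPB and KLF14, list genes without a member, DKK1 and MBL2, and the second flank of an interval were named outside it, after their values were seen. Part of the immediate early list is not reported here. The members and lists were chosen with earlier results of these data known. The software was Python 3.11.15 with scipy 1.17.1, numpy 2.4.6, matplotlib 3.10.9 and pandas 2.3.3.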

Additional observations from a re-analysis of the deposited data

How the results depend on the processing

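Settings on added centromere windows, on chromosomes 5, 15 and 20 and on predicted (LOC) coding genes were chosen after seeing the data. The ratio of far to other density, 0.604, stayed below 1 under all 9 alternatives. It was 0.434 at 250 kb, 0.689 at 50 kb, 0.361 when every annotated gene set the distance, 0.578 with windows widened by 5 Mb, 0.563 without chromosomes 5, 15 and 20, and 0.626 to 0.653 without replicate 1 or without replicate 2. Deserts with 5 or more far peaks numbered 32, against 20 without those chromosomes and 54 to 123 without replicate 1 or without replicate 2, where the single lists hold more peaks. The share in non-coding genes, 38.8%, ran from 36.6 to 41.0% under 7 alternatives, and the difference in median fold (replicates averaged), 0.048, from 0.0127 to 0.0663 without replicate 1 or without replicate 2. Odds ratios turned direction, with no exact p below 0.05, for neighbours within 50 kb (1.08). For neighbours within 10 kb the range without replicate 1 or without replicate 2 was 0.926 to 1.05, and only the value without replicate 1 turned direction. They turned for replicate 1 peaks found in replicate 2 at 50 kb (1.01), at or above the median q (1.03), without LOC genes (1.02) and with added windows (1.09), for replicate 2 peaks found in replicate 1 with added windows (1.15), and for a q of 5 when every gene set the distance (2.49). Found shares had an unadjusted exact p below 0.05 at 250 kb (0.817 and 0.618 in replicates 1 and 2). The same held when every gene set the distance (0.515 with Fisher's exact p = 3.78e-06, and 0.211 with p = 3.07e-19). There the far sets shrank to 278 peaks in replicate 1 and 142 in replicate 2. How many of those peaks lay at centromere positions without a window was not counted. For each of these changes the cause was not tested. No paired analysis was possible because no list for the input was used here, and both BRG1 libraries belong to 1 group. Most members stood at a −log10 q below 5, and peaks missed by both lists are outside the description.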
